A study of Mus musculus with 18 samples.

Results

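M/D-driven mammary tumors arose in mice given medroxyprogesterone acetate (MPA, a synthetic progestin) and 7,12-dimethylbenz[a]anthracene (DMBA, a polycyclic carcinogen). They were compared with hyperplastic mammary glands that had the same exposure and had formed no tumor. The comparison therefore has the same dosing of both agents on each side. It asks what accompanies the step from an exposed gland to a tumor. Its members, 6 tumors and 6 hyperplastic glands, were taken by their titles from the 18 samples of the series. The remaining 6 samples, normal glands of mice that never met either agent, serve here to place the levels. All mice were female and of the C57Bl/6 strain. In both exposed groups a pellet with 50 mg of MPA, released over 90 days, was placed under the skin at 6 to 9 weeks of age, and 200 uL of DMBA at 5 mg/mL was given by gavage 6 times. Tumors were collected at 0.7 to 1 cm2. The labels give neither the age at which hyperplastic and normal glands were taken nor the mouse or the gland behind a sample. The p-values therefore rest on the variation among these arrays, which may be partly technical.

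A mouse mammary gland is a tree of epithelial ducts, with an inner luminal and an outer myoepithelial layer, set in a pad of white fat with vessels, fibroblasts and resident immune cells. The inguinal pads also hold a lymph node. Progestins drive the branching and proliferation of this epithelium, and DMBA is turned by xenobiotic enzymes into metabolites that damage DNA. A carcinoma that grows in such a pad brings many dividing epithelial cells and a stroma of its own. In bulk tissue such as this, fewer cells of a type and less RNA per cell cannot be told apart. Whether lymph nodes were left in the glands used for these arrays is not given in the sources used here.

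Each RNA was measured on its own Affymetrix whole-transcript array, as log2 expression values that the authors had normalized together. Of 27030 genes with a single symbol, 17362 had a tumor or hyperplastic mean above the detection level of 5.36, which is the 95th percentile of the means of 1078 olfactory receptor genes. Arrays were of similar quality: the area under the curve that separates positive from negative control probe sets ran from 0.877 to 0.917 in tumors and from 0.871 to 0.897 in hyperplastic glands. Several arrays stood apart within their group. Tumor 3 had the lowest score of 24 epithelial identity genes (-1.30, against 0.32 to 0.92 in the other tumors, as the mean log2 deviation of the list from its average over all 18 arrays). Tumor 6 had the highest score of 11 epidermis and hair genes (2.48, against -0.35 to 0.10), and hyperplastic 3 was high for the same list (1.07, against -0.38 to -0.15) and for squamous cornification (1.55, against -0.51 to -0.26). Tumors 5 and 6 had the fat cell scores nearest to those of glands (-0.79 and -0.86, against -2.19 to -1.76 in the other 4 tumors). Without tumors 3 and 6, 5551 genes were called in place of 4471, and without hyperplastic 3 as well, 4933 genes.

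At an adjusted p under 0.05 in limma, 4471 genes differed between tumors and hyperplastic glands. Of all genes tested, 2535 (9.38%) were higher and 1936 (7.16%) were lower in tumors, and these shares are the background for every count of list members given here. Large changes ran mostly downward: 585 called genes fell beyond 2-fold and 138 rose beyond 2-fold. In 1349 genes (4.99%) every tumor lay above every hyperplastic gland, and in 1096 genes (4.05%) every tumor lay below. The median change over all genes was 0.04. When each array was centred on 13 reference genes, that median moved to -0.05 and the split turned, with 1181 genes higher and 2801 lower (29.7% of calls higher, against 56.7%). These reference genes were not constant themselves. For 3 of the 13 every tumor lay above every hyperplastic gland, and for 1 every tumor lay below, with changes from -0.54 (Sdha) to 0.50 (Snrpd3). Small rises therefore depend on the scaling. The changes described in what follows are mostly large against this shift, but fewer repair, G1 and glycolysis genes were called higher under this centring. Among 5222 negative control probe sets, 33 were higher and 192 lower at the p-value of the last called gene, so that small falls near the floor of the array are also less firm.

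**Figure D1:**
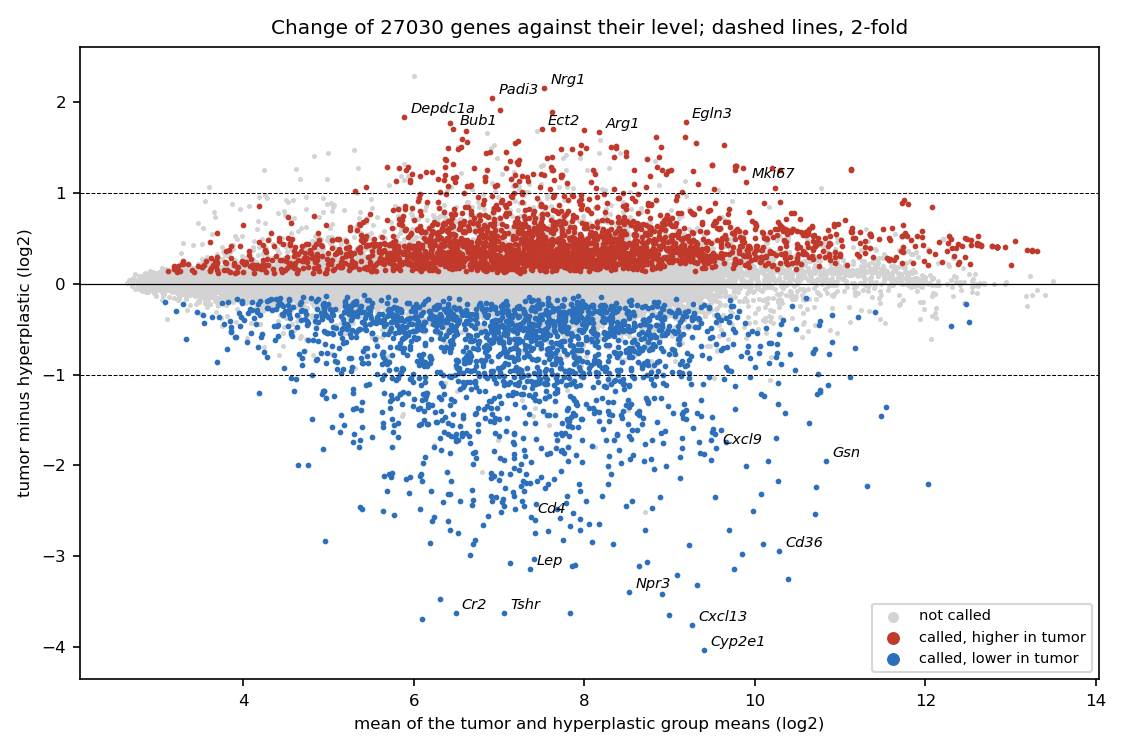
Difference of the group means (tumor minus hyperplastic, log2) plotted against the mean level of each of 27030 genes (log2); each point is a gene, red and blue mark calls at an adjusted p under 0.05 in limma, and dashed lines mark 2-fold. The falls reach -4.04 (Cyp2e1) while called rises reach 2.15 (Nrg1).

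Cell division genes were higher in tumors than in equally exposed glands without exception among those measured. All 34 measured genes of a 42-gene mitosis and spindle list rose, with a median change of 1.28 on the log2 scale, and in 33 of the 34 the groups did not overlap. Mki67, the nuclear protein used as a marker of proliferation, had a lowest, median and highest value of 9.75, 10.50 and 10.91 in tumors and of 9.05, 9.30 and 9.67 in hyperplastic glands. The lowest tumor, number 5, thus lay just above the highest gland. Tumors were 2.17-fold higher for Mki67 (log2 change 1.12, SE 0.18, n = 6 per group, limma adjusted p = 0.00182). Bub1, a kinase of the spindle checkpoint, ran from 6.44 over 7.37 to 8.05 in tumors and from 5.37 over 5.58 to 5.98 in hyperplastic glands. Its change was 1.70 (SE 0.24, limma adjusted p = 0.000818), a 3.25-fold difference, again with no overlap.

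Further genes of cell division were among the larger rises. Ect2, an exchange factor that drives cytokinesis through RhoA, changed by 1.71 (SE 0.24), and Anln, the actin-binding anillin of the cleavage furrow, by 1.70 (SE 0.26). Cenpe, a kinesin that carries chromosomes to the spindle equator, and Ttk, the checkpoint kinase also known as Mps1, changed by 1.57 (SE 0.23) and 1.56 (SE 0.22). Outside the list, Depdc1a and Shcbp1, whose transcripts are known to peak in dividing cells, changed by 1.83 (SE 0.21) and 1.59 (SE 0.24), and the hyaluronan receptor Hmmr, which also binds the spindle, by 1.68 (SE 0.20). A cyclin B1 pseudogene, Ccnb1-ps, changed by 1.92 (SE 0.24), a value that is uncertain because probes may also take up transcripts of the near-identical parent gene. Within tumors, the mitosis score was lowest in tumors 5 and 6 (0.41 and 0.66) and highest in tumor 1 (1.45), and the gland with the highest score, hyperplastic 4, reached 0.05. Epithelial identity scores ran from -1.30 to 0.92 in tumors and from -0.48 to 0.34 in hyperplastic glands, and the part of epithelial content in these rises was not tested.

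Promoters of these genes were examined because many mitotic genes are known to be controlled through a pair of elements: the cell cycle genes homology region (CHR), read here as TTTGAA, which MuvB complexes bind, and the CCAAT box, which NF-Y binds. RefSeq windows (GRCm38.p6) of 300 bases, the last 50 of them after the transcript start, were found for 32 of the 34 called mitosis genes. On either strand, TTTGAA stood in 25 of the 32 genes (78.1%), against 20.2% of all 27025 genes with a RefSeq window, tested or not. CCAAT stood in 24 (75.0%), against 41.1%. Both motifs stood in 22 of the 32 genes (68.8%), against 7.97% of all genes with a window. All 34 measured list members were called, so these shares describe the list as it was written and do not depend on the tumor rise. Outside the mitosis list, 67 genes with a window were called beyond 2-fold higher in tumors, and 15 held both (22.4%). Among 318 called beyond 2-fold lower, 22 did (6.92%). Among 27 measured DNA replication genes with a window, 3 did (11.1%). The 5 list members with the largest change are printed here to show the layout, from 150 bases before to 30 bases after the start and from 5′ to 3′ along the gene, with matches to either motif, on either strand, in capitals. For Ect2, which has 2 windows, the topmost in the RefSeq table is shown.
Ect2, chr3:27153849-27154028, minus strand: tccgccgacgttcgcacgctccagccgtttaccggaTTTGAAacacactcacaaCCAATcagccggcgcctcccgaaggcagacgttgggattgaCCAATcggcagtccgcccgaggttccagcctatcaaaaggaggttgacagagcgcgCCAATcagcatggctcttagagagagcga
Anln, chr9:22389177-22389356, minus strand: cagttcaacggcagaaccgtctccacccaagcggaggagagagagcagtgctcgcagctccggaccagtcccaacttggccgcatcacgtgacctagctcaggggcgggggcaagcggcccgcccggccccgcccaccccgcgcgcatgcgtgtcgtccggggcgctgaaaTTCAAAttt
Bub1, chr2:127831830-127832009, minus strand: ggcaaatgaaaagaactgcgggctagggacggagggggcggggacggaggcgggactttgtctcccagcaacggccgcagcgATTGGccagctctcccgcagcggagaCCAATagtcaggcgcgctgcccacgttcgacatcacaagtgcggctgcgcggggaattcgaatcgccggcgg
Cenpe, chr3:135212413-135212592, plus strand: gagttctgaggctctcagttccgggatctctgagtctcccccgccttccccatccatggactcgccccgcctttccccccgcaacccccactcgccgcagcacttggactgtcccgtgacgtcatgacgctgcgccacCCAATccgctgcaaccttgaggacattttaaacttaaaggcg
Ttk, chr9:83834539-83834718, plus strand: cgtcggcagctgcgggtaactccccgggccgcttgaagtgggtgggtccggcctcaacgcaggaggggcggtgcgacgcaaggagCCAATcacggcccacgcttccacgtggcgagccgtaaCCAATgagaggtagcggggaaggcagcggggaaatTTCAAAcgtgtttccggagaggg
In Ect2 a CHR match began 114 bases before the start and CCAAT matches 96 and 55 bases before it, with another at base 2 of the transcript. Ttk had CCAAT 65 and 28 bases before the start and a CHR match on the other strand that began at base 8 of the transcript. Anln had CHR matches that began at bases 22 and 29, the latter running past the printed stretch, and no CCAAT. Bub1 and Cenpe showed CCAAT and no TTTGAA in these windows. A match describes the letters of the window and is not a measured binding site.

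**Figure D2:**
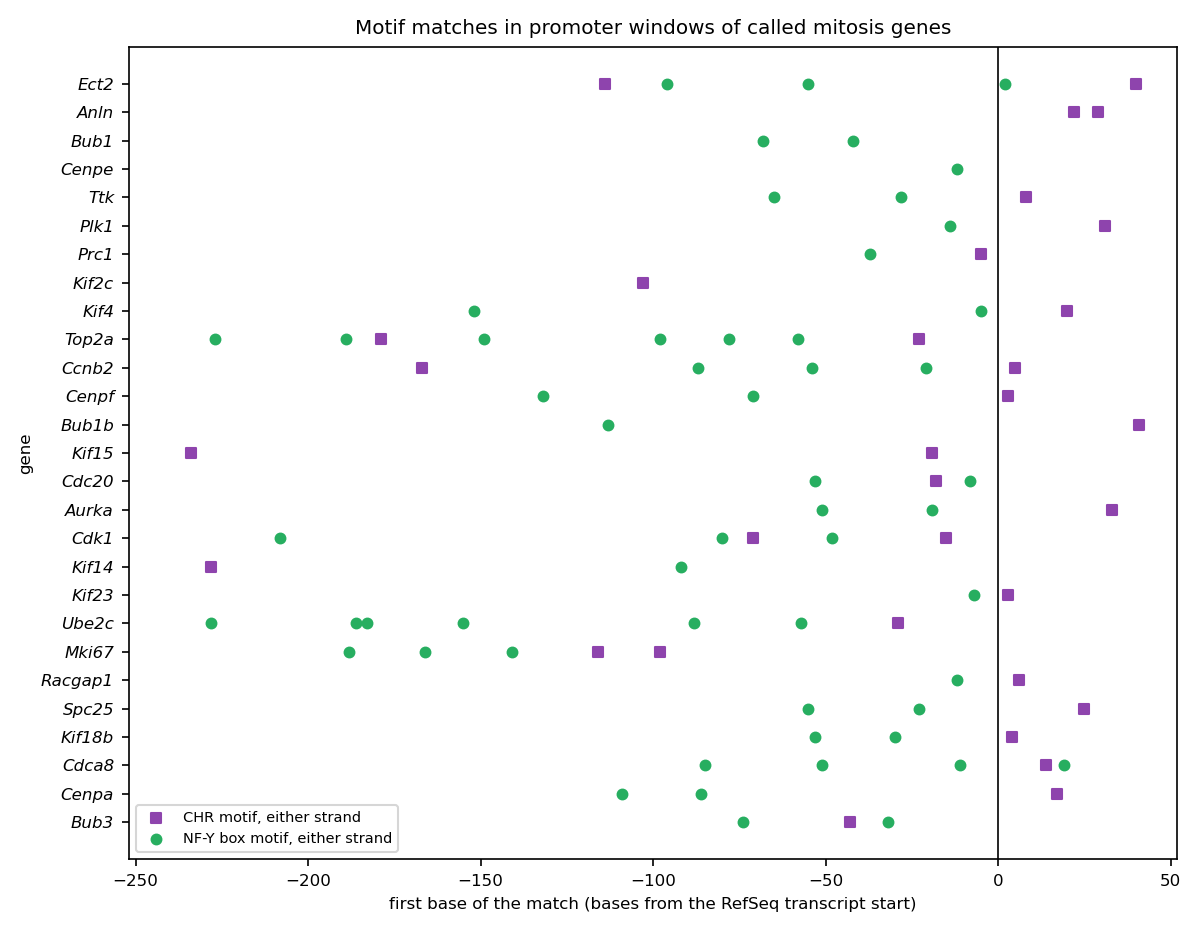
Position of the first base of each CHR match (squares) and each CCAAT match (circles, named NF-Y box) relative to the RefSeq transcript start, in bases, for the called mitosis genes with at least 1 match in the RefSeq window used; genes are ordered by their log2 change, largest on top. CCAAT matches lie mostly within 100 bases before the start, and CHR matches mostly near the start.

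DNA replication and repair genes rose with smaller changes. Of 33 measured replication genes, 29 were higher and none lower (median 0.60), and 25 did not overlap. The 4 that were not called, Gins3, Pcna, Cdt1 and Pola1, are named because the count is small, after their values were seen, and changed by 0.26, 0.30, 0.32 and 0.40. Rrm2, the ribonucleotide reductase subunit that supplies deoxynucleotides in S phase, ran from 7.94 over 8.59 to 9.22 in tumors and from 6.95 over 7.08 to 7.32 in hyperplastic glands. It was 2.80-fold higher (log2 change 1.48, SE 0.17, limma adjusted p = 0.000291) and led its list by a wide margin, since the next member, Rrm1, changed by 0.93 (SE 0.15). The helicase subunit Mcm6 changed by 0.87 (SE 0.13). Of 21 homologous recombination and Fanconi genes, 17 were higher and none lower (median 0.38), among them the helicase genes Brip1 (0.90, SE 0.15) and Blm (0.87, SE 0.17) and the nuclease gene Exo1 (0.84, SE 0.13). Among 20 genes of G1 control, 7 were higher and 1 was lower. Cdk4, the cyclin D partner that phosphorylates the retinoblastoma protein, did not overlap between the groups and was 1.76-fold higher (0.82, SE 0.11), and the E-type cyclins Ccne1 and Ccne2 changed by 0.76 (SE 0.16) and 1.07 (SE 0.21). For 14 p53 targets the median change was 0.00, with 1 higher (Plk2, a call lost under either centring of the arrays) and 1 lower (Sesn1). With arrays centred on reference genes, 26 replication, 12 recombination and Fanconi and 5 G1 genes were called higher.

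Nrg1, the neuregulin that activates ErbB3 and ErbB4, had the largest called rise of all genes that were tested. Its values in tumors 1 to 6 were 9.76, 9.08, 8.63, 9.60, 7.93 and 6.64, and in hyperplastic glands 1 to 6 they were 6.03, 6.52, 6.54, 7.00, 6.28 and 6.36. Tumor 6 lay within the range of the glands and the other 5 tumors above it. The difference was 2.15 (SE 0.45, limma adjusted p = 0.00716), or 4.44-fold. Of 12 measured ErbB receptor and ligand genes, Nrg1 rose, Nrg4, a neuregulin secreted by fat cells, fell by 1.51 (SE 0.27), and 10 were not called. The receptor gene Erbb2 was among these (0.59, SE 0.19, limma adjusted p = 0.051, 95% interval 0.18 to 1.00). Erbb2 was near the threshold and its call depended on the setting. It was called higher with all 18 arrays in the fit (limma adjusted p = 0.0125), with the detection filter (0.0371) and with array weights (0.0188). The same held without tumor 1, without tumor 3, and without tumors 3 and 6, with or without hyperplastic 3. In the remaining settings it was not called.

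Padi3, a peptidylarginine deiminase of differentiating epithelia, showed a like pattern with another exception. It measured 8.61, 7.08, 5.87, 9.21, 7.83 and 9.03 in tumors 1 to 6, and between 5.73 and 6.34 in hyperplastic glands. Tumor 3 was at the level of the glands. The change was 2.04 (SE 0.49, limma adjusted p = 0.0134), or 4.12-fold. Among 25 squamous cornification genes, Padi3 and Padi4 (0.57, SE 0.17) were the members called (that of Padi4 was lost when arrays were centred on reference genes), beside a list median of 0.66, and the list score varied from -0.30 in tumor 3 to 2.12 in tumor 6. Without tumors 3 and 6 and hyperplastic 3, a setting chosen after seeing the data, 6 of the 25 were called.

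Of 11 Ras-MAPK feedback and ETS genes 3 were higher and none lower, and of 23 Wnt ligand, inhibitor and target genes 3 were higher, 2 lower and 18 not called. Etv5, an ETS factor induced by fibroblast growth factor and MAPK signals, ran from 7.88 over 9.11 to 10.40 in tumors and from 7.27 over 7.65 to 7.75 in hyperplastic glands, which left no overlap (1.51, SE 0.37, limma adjusted p = 0.0152). The related Etv4 (0.73, SE 0.20) and the feedback inhibitor Spred2 (0.39, SE 0.10) also rose, though both lost the call when arrays were centred on reference genes, and the other 8 of the list were not called. Wnt5a, a Wnt ligand that acts mainly without beta-catenin, was 2.26-fold higher with no overlap (1.18, SE 0.21), whereas Lef1, a transcription factor of Wnt signaling that lymphocytes also express, fell by 1.92 (SE 0.40), and the inhibitor Sfrp4 fell by 1.21 (SE 0.30).

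Hypoxia and glycolysis genes rose in part. Egln3, a prolyl hydroxylase that hypoxia itself induces, ran from 9.25 over 9.97 to 11.24 in tumors and from 7.72 over 8.20 to 9.04 in hyperplastic glands. It was 3.44-fold higher (1.78, SE 0.37, limma adjusted p = 0.00627) without overlap. Plod2, a lysyl hydroxylase that prepares collagen for cross-linking, was 3.24-fold higher (1.70, SE 0.38), also without overlap. In the list of 23 measured genes, 9 were higher and 1 was lower (median 0.46). The pH regulator Car9 and the oxidase Ero1a changed by 1.36 (SE 0.38) and 1.52 (SE 0.41), with tumor 4 highest for both. The glycolytic regulator Pfkfb3, which is abundant in fat, fell by 1.32 (SE 0.18). This count was among the least steady of the lists, with 4 members higher when hyperplastic 1 was left out and 13 when tumor 2 was. It was 6 when arrays were centred on reference genes. Of 18 genes of amino acid supply, the serine pathway genes Shmt2 (0.80, SE 0.18) and Psph (0.39, SE 0.10) and the leucine transporter Slc7a5 (1.25, SE 0.33) rose, while the glutamine transporter Slc1a5 fell by 1.94 (SE 0.15), with all tumors between 8.32 and 8.72 and all hyperplastic glands between 9.95 and 10.95. The other 14 were not called, and the call of Psph was lost when arrays were centred on reference genes.

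Among integrin, laminin and tenascin genes both directions occurred. Tnc, the matrix glycoprotein tenascin C, changed by 1.61 (SE 0.43), and the laminin receptor subunit Itga3 by 1.21 (SE 0.22). Of 18 integrin, laminin and tenascin genes, 5 were higher and 2 lower, the largest fall being that of the muscle-type laminin Lama2 (-1.59, SE 0.26). The count of genes higher was 1 without hyperplastic 6 and 9 without tumor 3. Of 20 collagen genes 2 were higher, 1 was lower and 17 were not called, and Col12a1 (1.61, SE 0.46) overlapped between the groups, since hyperplastic glands 3 and 5, at 9.35 and 9.23, reached the level of the lower tumors.

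Epithelial genes as a group were not called, and for the epithelial identity list this depended on tumor 3. None of 24 epithelial identity and junction genes and none of 13 keratins passed the test, although 22 of the 24 and 12 of the 13 were nominally higher (medians 0.41 and 0.34). Without tumor 3, 16 of the 24 epithelial genes were called higher and the median was 0.76. Of the 13 keratins, 3 were called higher in that setting, with a median of 0.57. Krt8, a keratin of luminal cells, read 10.57, 12.35, 9.28, 11.95, 11.72 and 11.04 in tumors 1 to 6 and had a median of 10.87 and a highest value of 11.37 in hyperplastic glands. Krt5, a keratin of basal cells, was 8.84 in tumor 3 and 10.93 to 12.44 in the other tumors, against 10.06 to 11.41 in glands. Vim, the intermediate filament of mesenchymal cells, was conversely highest in tumor 3, at 12.62, with 11.56 to 11.95 in the other tumors and 11.95 to 12.18 in hyperplastic glands. Without tumor 3 Vim was called lower (-0.35, limma adjusted p = 0.00804). The 17 milk and alveolar genes had no common direction (median 0.13), and their score ran from -2.09 in tumor 3 to 1.68 in tumor 6.

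Of 11 hormone receptor and progestin response genes 10 were not called. Pgr, the progesterone receptor and thus a target of MPA, measured 8.55, 10.16, 6.21, 8.89, 8.44 and 6.26 in tumors 1 to 6, a spread that took in all hyperplastic glands (7.10 to 8.94). The group means were 8.08 in tumors and 8.09 in hyperplastic glands (SE of the difference 0.62, limma adjusted p = 0.998), and the 95% interval of the difference was wide, from -1.36 to 1.35. Tumors 3 and 6 were the 2 low samples. Esr1, the estrogen receptor, had a median of 6.79 in tumors and 7.55 in hyperplastic glands (-0.59, SE 0.25, limma adjusted p = 0.131). Without tumor 2, in which Esr1 was at 7.91, it was called lower (limma adjusted p = 0.015). The member called was Ghr, the growth hormone receptor, which is abundant in fat and fell by 2.00 (SE 0.18). Igf1, the insulin-like growth factor that growth hormone induces in stroma, was 3.13-fold lower (-1.65, SE 0.15), with no overlap between tumors (6.53 to 7.33) and glands (8.18 to 9.04).

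**Figure D3:**
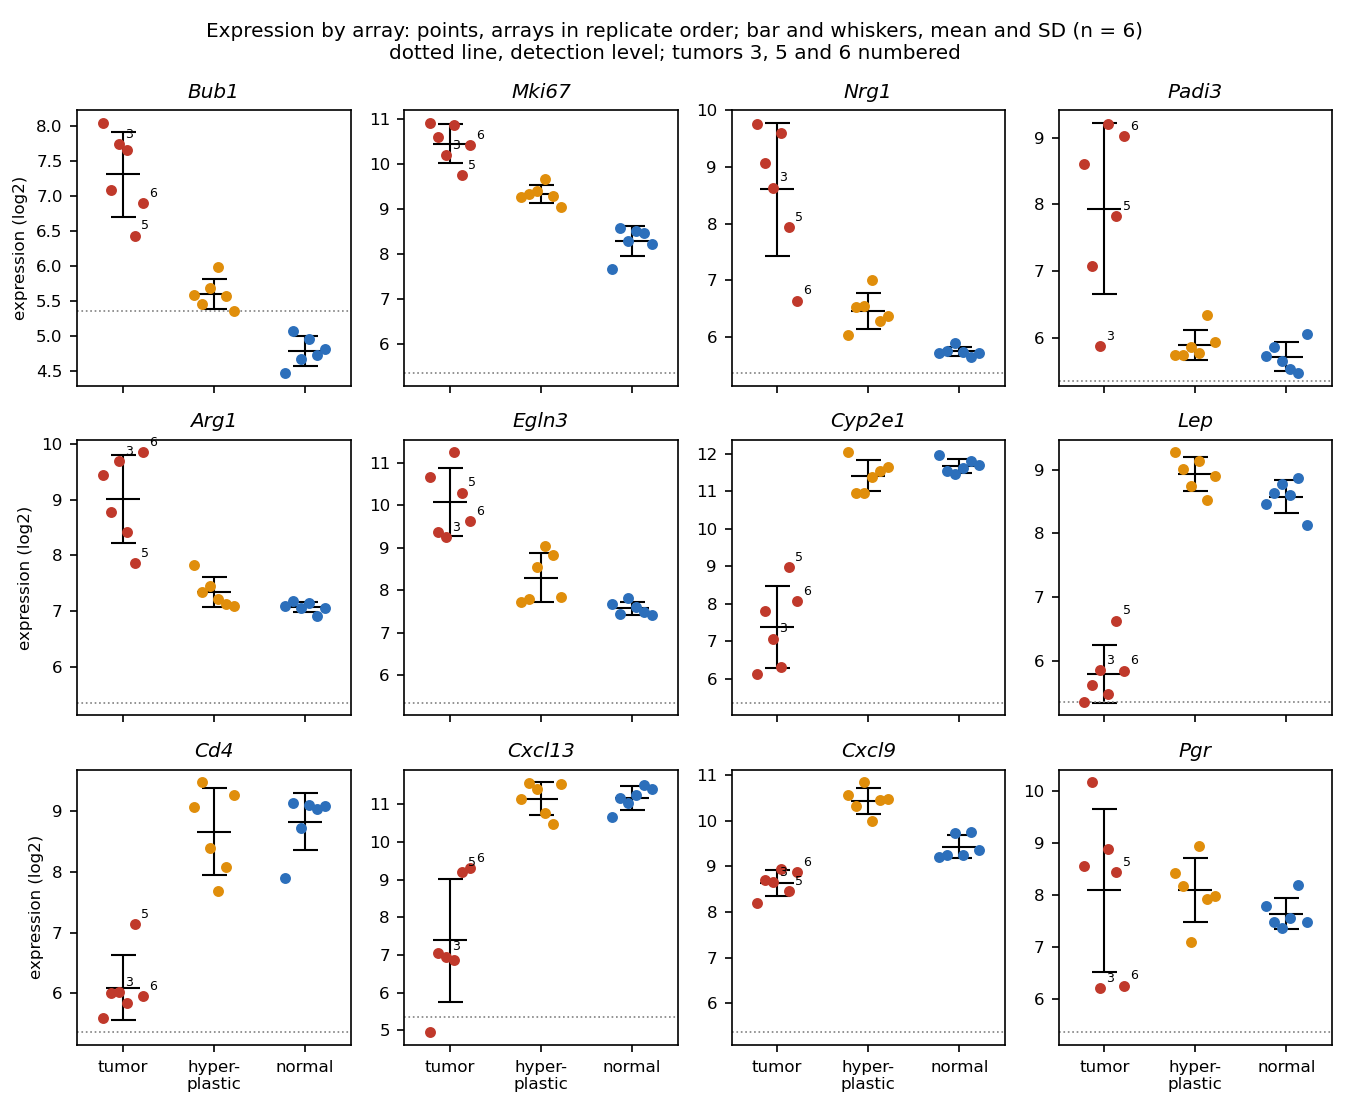
Expression (log2) of 12 genes in 6 tumors, 6 hyperplastic and 6 normal glands; each point is an array, the bar and whiskers give the mean and SD, the dotted line is the detection level of 5.36, and tumors 3, 5 and 6 are numbered. Tumor 6 lies among the glands for Nrg1 and tumor 3 for Padi3, while Cyp2e1, Lep, Cd4, Cxcl13 and Cxcl9 separate all tumors from all glands.

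Fat cell genes showed the deepest loss. Of 21 measured white adipocyte genes 20 were lower and none higher, with a median change of -2.64, and 19 did not overlap. The member not called was G0s2, a lipase inhibitor, named after its value was seen (-0.38). Lep, the fat hormone leptin, ran from 5.35 over 5.73 to 6.63 in tumors and from 8.52 over 8.96 to 9.27 in hyperplastic glands. It was 8.80-fold lower (-3.14, SE 0.20, limma adjusted p = 2.13e-05). Cidec, a lipid droplet protein, was 9.93-fold lower (-3.31, SE 0.35), the adipokine Retn 9.50-fold (-3.25, SE 0.41) and Pck1, which makes glycerol for triglycerides in fat, 9.22-fold (-3.20, SE 0.45). The fatty acid transporter Cd36, shared by fat cells and capillaries, fell by 2.94 (SE 0.26).

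Genes of fatty acid synthesis went the same way. Of 10 measured genes of de novo lipogenesis 9 were lower (median -1.55), all 9 without overlap. Fasn, the fatty acid synthase, ran from 9.59 over 10.08 to 11.04 in tumors and from 11.94 over 12.46 to 12.76 in hyperplastic glands (-2.22, SE 0.24). Thrsp, a lipogenic factor of liver, fat and lactating gland, fell by 2.71 (SE 0.51) and was highest among tumors in number 6. Of 28 nuclear-encoded respiratory chain subunits 5 were lower, with a median of -0.11.

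The largest called fall of all genes tested was in a xenobiotic enzyme. Cyp2e1, a cytochrome that oxidizes ethanol and small solvents, ran from 6.12 over 7.43 to 8.97 in tumors and from 10.96 over 11.47 to 12.04 in hyperplastic glands. It was 16.4-fold lower (-4.04, SE 0.44, limma adjusted p = 0.000167). Fmo1, Gstm1 and Gstm2, of the same list, changed by -2.10 (SE 0.18), -1.62 (SE 0.23) and -1.25 (SE 0.21), and 11 of the 17 xenobiotic genes were not called. Other genes in the first ranks were the natriuretic peptide clearance receptor Npr3 (-3.39, SE 0.18), the peroxisomal fatty acid transporter Abcd2 (-3.42, SE 0.33), the amylase Amy1 (-3.63, SE 0.30) and Sncg, a synuclein of fat and nerve (-3.14, SE 0.26). The thyrotropin receptor Tshr, which fat cells carry, changed by -3.63 (SE 0.24) to a tumor mean below the detection level, so that no fold is given. For Cyp2e1, Tshr and Lep the highest tumor was number 5, the tumor with the highest fat score. Fat cell scores were also lower in tumors (-2.19 to -0.79, against 0.48 to 1.37 in hyperplastic glands), as were the genes named here and Ghr and Igf1. The part of fat cells in these falls was not tested.

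Most blood endothelial genes and a smaller part of the fibroblast genes were also lower. Of 20 blood endothelial genes 17 were lower and none higher (median -0.77), and 15 did not overlap. Cldn5, the tight junction protein of endothelium, ran from 7.36 over 8.07 to 8.25 in tumors and from 9.43 over 9.60 to 10.03 in hyperplastic glands (-1.72, SE 0.17). The phosphatase Ptprb of endothelial cells fell by 1.68 (SE 0.15). Angiogenic factors did not move together: Pgf, the placental growth factor, was 2.82-fold higher and Apln changed by 1.14 (SE 0.27), while Fgf2 fell by 0.83 (SE 0.10) and Angpt1 by 1.08 (SE 0.31). Of 17 small leucine-rich proteoglycan and fibroblast genes 10 were lower and 7 were not called, with a median of -1.02. The change was positive, without a call, in 6 of the 17 and reached 1.04. Dpt, the matrix protein dermatopontin, was 4.71-fold lower (-2.23, SE 0.19) and Gsn, the actin-severing gelsolin, 3.87-fold lower (-1.95, SE 0.13). Both were free of overlap.

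**Figure D4:**
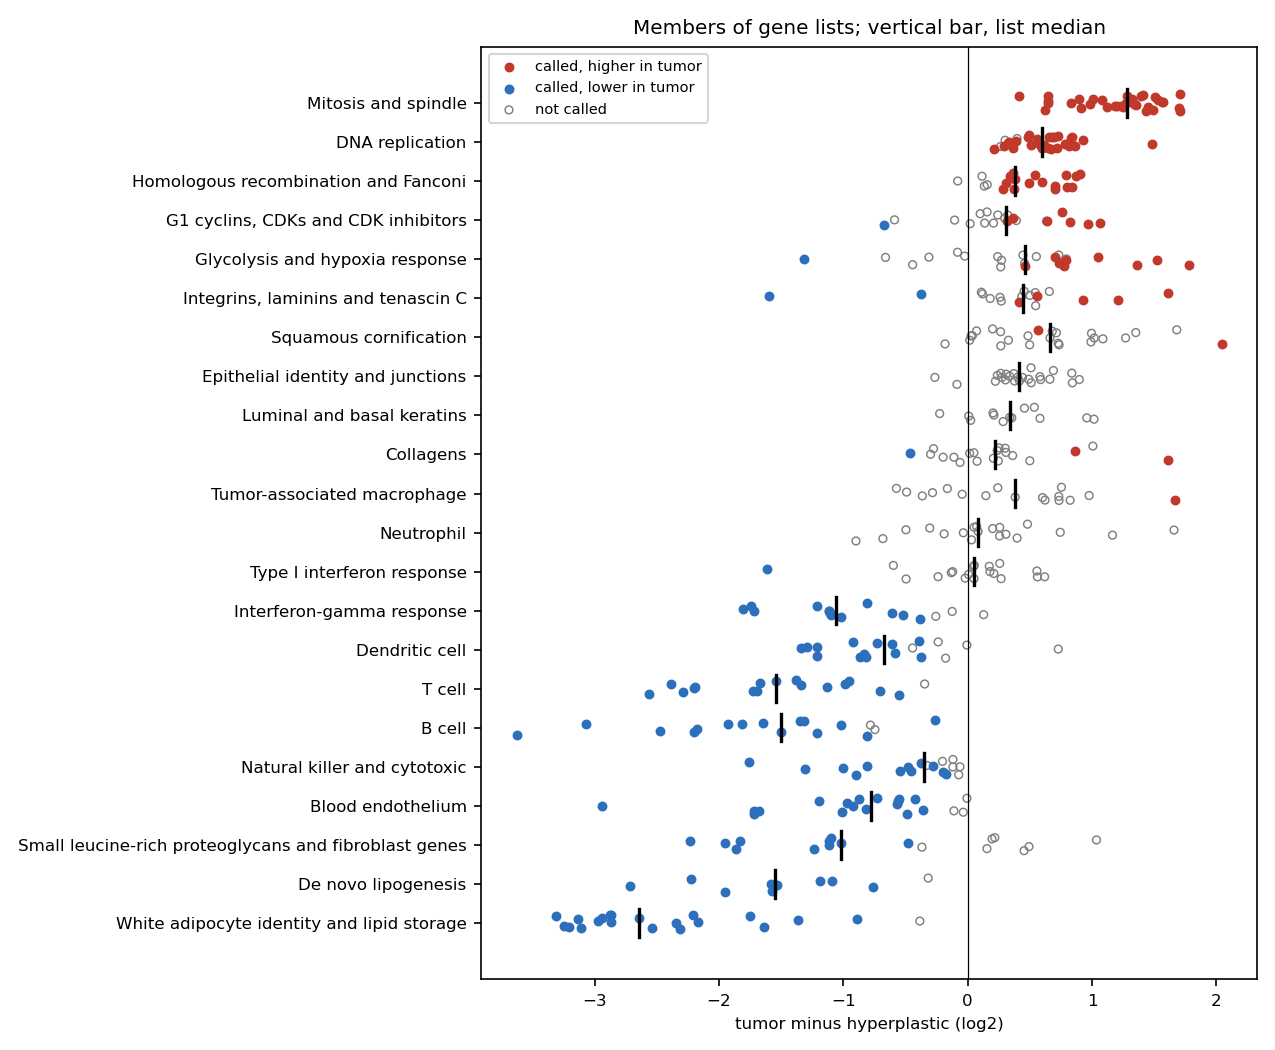
Change of each measured member of 22 gene lists (tumor minus hyperplastic, log2); each point is a gene, filled where called at an adjusted p under 0.05 in limma and open where not, with the list median as a vertical bar. The mitosis list lies wholly to the right (median 1.28) and the fat cell list wholly to the left (median -2.64), while the epithelial list lies to the right without a call.

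Smaller families of signaling and matrix genes contained single strong members. Of 23 TGF-beta, activin and BMP genes 3 were lower, led by the activin-like receptor Acvr1c of fat cells (-2.39, SE 0.20). Of 14 insulin-like growth factor genes 4 were lower, including the adapter Irs2 (-0.81, SE 0.16) and the insulin receptor Insr (-0.52, SE 0.11) beside Igf1. Among 19 metalloproteinase and inhibitor genes, the inhibitor Timp4, which fat expresses, fell by 1.52 (SE 0.10) and the protease Mmp3 by 1.02 (SE 0.29). Of 9 serpin and plasminogen genes 3 were lower, led by the acute-phase gene Serpina3n (-1.60, SE 0.31), and 1 was higher, the collagen chaperone Serpinh1 (0.47, SE 0.12), with a list median of 0.08. S100a6, a calcium-binding protein, was the member called among 13 S100 genes (1.01, SE 0.23). Of 15 nicotinamide genes 2 were lower, the methyltransferase Nnmt (-1.40, SE 0.13) and the oxidase Aox1 (-1.32, SE 0.19). Among 7 lymphatic genes the scavenger receptor Stab2 (-0.77, SE 0.13) and 2 others were lower and podoplanin, Pdpn, which epithelial and stromal cells also make, was higher (1.10, SE 0.35), a call lost when arrays were centred on reference genes or on their medians.

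Lymphocyte genes were lower in every tumor than in hyperplastic glands for most list members. Of 17 T cell genes 16 were lower (median -1.54) and of 17 B cell genes 15 (median -1.50), and 14 of each did not overlap. Cd4, Il7r, Cd3e, Cd3g and Cxcl13 are also named by the study, which chose them on these samples, and are therefore no independent evidence of direction. Cd4 read 5.59, 6.01, 6.03, 5.84, 7.14 and 5.95 in tumors 1 to 6 and from 7.68 over 8.73 to 9.47 in hyperplastic glands. The highest tumor, number 5, thus stayed below the lowest gland. Cd4 was 5.92-fold lower (-2.57, SE 0.33, limma adjusted p = 0.000526). The B cell scaffold gene Bank1 was 8.40-fold lower (-3.07, SE 0.31), and the complement receptor Cr2 of B cells and follicular dendritic cells changed by -3.63 (SE 0.32) to a mean below the detection level. Ighm, the heavy chain of IgM, was 8.37-fold lower (-3.07, SE 0.37).

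The same direction held for signals that gather lymphocytes. Cxcl13, the chemokine of B cell follicles, measured 4.94, 7.06, 6.95, 6.86, 9.19 and 9.31 in tumors 1 to 6 and 10.48 to 11.55 in hyperplastic glands. Tumors 5 and 6 were nearest to the glands. The change was -3.76 (SE 0.63, limma adjusted p = 0.0022), a 13.6-fold fall. Glycam1, a mucin of lymph node venules and of milk, spanned 5.08 to 11.69 in tumors, and tumor 6 lay above every hyperplastic gland (10.28 to 11.26). Its change of -3.64 (SE 1.00, limma adjusted p = 0.0262) was lost on leaving out any of 6 arrays. Of 13 lymphoid chemokine and addressin genes 8 were lower. The part of lymph node tissue in the gland samples in these differences was not tested.

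Among glands the lymphocyte lists were themselves uneven. The T cell score was -0.11 and -0.08 in hyperplastic glands 4 and 5 and 0.43 to 1.11 in the other 4, while tumors ran from -1.22 to -0.69. The B cell score went with it, lowest in the same 2 glands (-0.02 and 0.20, against 0.43 to 1.03). Cytotoxic and dendritic cell genes were also lower in tumors: 12 of 18 natural killer and cytotoxic genes (median -0.35) and 13 of 18 dendritic cell genes (median -0.67). Ccl5, a chemokine of T and natural killer cells, was 3.39-fold lower (-1.76, SE 0.23). For 7 of the 18 natural killer genes both means were below the detection level. Of 13 checkpoint and regulatory T cell genes 7 were lower, among them the costimulatory receptor Icos (-1.68, SE 0.21) and the interleukin 2 receptor chain Il2ra (-1.50, SE 0.22).

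Interferon-gamma response genes were mostly called lower and type I interferon response genes mostly not called. Of 16 interferon-gamma response genes 13 were lower (median -1.06), and 11 did not overlap. Cxcl9, a chemokine that interferon-gamma induces to attract T cells, ran from 8.19 over 8.68 to 8.95 in tumors and from 9.99 over 10.47 to 10.85 in hyperplastic glands. It was 3.50-fold lower (-1.81, SE 0.15, limma adjusted p = 3.3e-05), and the guanylate-binding protein Gbp4 3.34-fold lower (-1.74, SE 0.13). Of 19 type I interferon response genes 18 were not called (median 0.05). The exception was Ifi27l2a, lower by 3.07-fold (-1.62, SE 0.25). Without tumor 1, which had the lowest interferon-gamma score (-1.02, against -0.47 to -0.27 in the other tumors), 4 type I genes were called higher. No test compared the 2 lists with each other. Of 10 antigen presentation genes 3 were lower and 3 higher. Ciita, the master regulator of class II genes, fell by 1.21 (SE 0.20) and the class I light chain B2m by 0.42 (SE 0.12). The call of B2m was lost without tumors 3 and 6 and on leaving out any of 5 arrays. The chaperones Pdia3, Canx and Calr of the endoplasmic reticulum changed by 0.35 (SE 0.07), 0.32 (SE 0.06) and 0.30 (SE 0.08).

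Arg1, the arginase of alternatively activated macrophages and of suppressive myeloid cells, was the single member called among 17 genes of tumor-associated macrophages. Its values were 9.45, 8.78, 9.69, 8.42, 7.87 and 9.85 in tumors 1 to 6 and 7.09 to 7.83 in hyperplastic glands, so that tumor 5 cleared the highest gland by little. It was 3.18-fold higher (1.67, SE 0.31, limma adjusted p = 0.00367). The list score was high in tumor 3 (1.28), tumor 6 (1.02) and hyperplastic 3 (0.91) and at most 0.12 in the other 9 arrays, and without tumors 3 and 6 its median turned from 0.38 to -0.04. Of 18 resident macrophage genes 5 were lower, led by the phosphatidylserine receptor Timd4 (-2.33, SE 0.25). None of 19 neutrophil genes was called. Of 13 mast cell genes 3 were lower, the proteases Cpa3 (-1.98, SE 0.41), Mcpt4 (-1.44, SE 0.23) and Cma1 (-0.61, SE 0.12), while both means of 7 members were below the detection level. None of 15 skeletal muscle genes was called (median -0.90), and their score spread widely in tumors (-1.48 to 1.15) and in hyperplastic glands (-1.22 to 2.40).

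**Figure D5:**
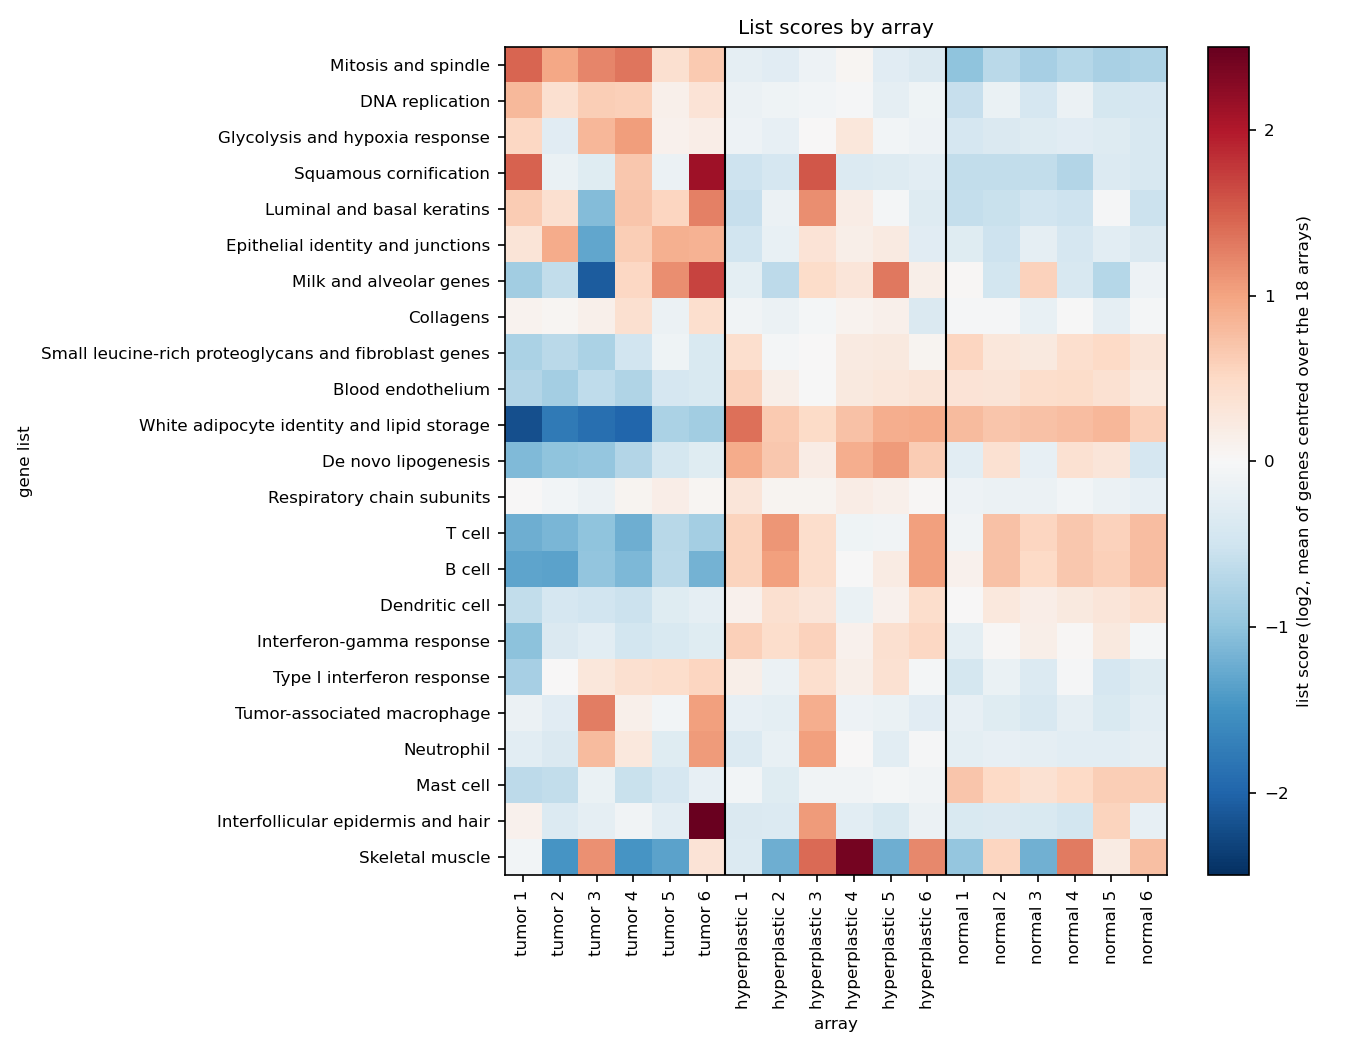
Scores of 23 gene lists (rows) in each of 18 arrays (columns), as the mean log2 deviation of the list's genes from their averages over all arrays; red is high and blue is low, with values from -2.19 to 2.48. Tumors are low for fat, T cell and B cell genes, tumor 3 is low for epithelial genes, and tumor 6 and hyperplastic 3 are high for epidermis genes.

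Hyperplastic and normal glands were set beside this comparison to see where each group of genes stood before the tumor step. Both differences use the same 6 hyperplastic arrays, so that an unusual hyperplastic mean moves them in opposite directions, and the values are given side by side without a test of likeness. Between hyperplastic and normal glands 1002 genes (3.71%) were higher and 522 (1.93%) lower. The mean of the 13 reference genes ran from 9.13 to 9.22 in hyperplastic and from 8.90 to 9.08 in normal arrays. Small medians at this exposure step, such as those of replication and respiratory chain genes, may therefore depend on the scaling, which was not tested. Mitosis genes were already higher in hyperplastic glands, 31 of 34, with a median difference of 0.63 before and 1.28 at the tumor step. Mki67 rose from a median of 8.38 in normal glands over 9.30 to 10.50. Replication genes differed by medians of 0.23 and 0.60.

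Other groups had medians near 0 between hyperplastic and normal glands. White fat genes differed by a median of 0.05 between hyperplastic and normal glands and of -2.64 at the tumor step. T cell genes differed by 0.00 and -1.54, B cell genes by 0.01 and -1.50, and endothelial genes by -0.08 and -0.77. Some groups had a positive median at the exposure step and a negative one at the tumor step. Interferon-gamma response genes differed by a median of 0.40 between hyperplastic and normal glands, with 7 of 16 higher, before -1.06 at the tumor step, and Cxcl9 had medians of 9.31, 10.47 and 8.68 in normal glands, hyperplastic glands and tumors. Genes of lipogenesis differed by 0.63, with 5 of 10 higher, before -1.55. Respiratory chain genes differed by 0.27, with 16 of 28 higher, before -0.11. Mast cell proteases were lower at both steps: Mcpt4 had medians of 9.74, 7.34 and 5.79, and Cpa3 of 10.23, 7.75 and 5.43.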

How the data were processed

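Expression was measured with 1 whole-transcript array per sample in 6 tumors, 6 hyperplastic and 6 normal mammary glands, and samples were grouped by their titles. The authors deposited log2 values after RMA, that is background correction, quantile normalization over arrays and median polish over the probes of a transcript cluster, and their processing notes name Affymetrix Expression Console, RMA and Partek. The array count limits the precision. No column of the deposited tables was left without a sample.

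Of 58803 transcript clusters, 27309 carry a single gene symbol, and the cluster with the highest mean represented a gene with several, which left 27030 genes. Tumor and hyperplastic arrays were compared in limma 3.58.1 (R 4.3.3) with Benjamini-Hochberg adjustment over all 27030 genes and a threshold of 0.05, and hyperplastic and normal arrays likewise. The computation was tested on simulated data. The value table of the series matrix held the same values for all 58776 shared clusters (tolerance 1e-06), so that it gave no alternative. Of 1038 symbols in 54 gene lists, 847 were measured. Genes on chromosomes numbered above 16 were not analysed here. Lists were described by counts and medians and received no test of their own.

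The genes named are the 12 highest and 12 lowest called genes without overlap, without immune receptor segments and predicted genes, up to 4 called members of each list with the largest change, and a few genes given whatever their result (Mki67, Bub1, Nrg1, Padi3, Cxcl13, Lep, Esr1, Pgr, Erbb2, Vim, Krt8, Krt5 and Arg1). Members and lists were chosen with earlier results of these data known. Alternatives were another set of arrays in the fit, a replicate block, filters, centrings, error models, array weights and the omission of arrays. The study's methods call genes by an absolute log2 change above 2 with an unadjusted p under 0.05, which was run as an alternative.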

Additional observations from a re-analysis of the deposited data

Results flagged for a closer look

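Within groups of 6 arrays, 22 of 326 sets of values of named genes and 15 of 108 sets of list scores held an array whose gap to its nearest neighbour was a large part of the whole range by Dixon's criterion. Chance gives this in about 1 of 20 groups.

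Tumor 5 accounted for 11 of the 22 genes, and in all of these it was the highest tumor. They included lymphoid genes: Cd4 (7.136, against 5.59 to 6.025 in the other tumors), Cd3e (8.123), Cd79b (7.477), Fcer2a (6.801), Ighm (8.758), Cr2 (5.98) and the lymphoid tissue lectin Cd209b (6.482). They also included Tshr (6.345), Gstm1 (9.858), the smooth muscle gene Synpo2 (7.88) and the respiratory chain gene Ndufb3 (7.684). In tumor 1 Etv4 was high (8.058), in tumor 6 Tgfbr3 was low (8.42), and in tumor 3 Vim was high (12.62).

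Among hyperplastic glands, number 1 stood apart for Apln (6.15), Cox8b (7.616), Gstm1 (10.91) and Ifi27l2a (10.13). Number 3 did so for Etv5 (7.273) and Padi4 (6.163), and number 5 for Padi3 (6.335) and Ccl11 (9.435).

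Of the 15 list scores, hyperplastic 3 held 6: squamous cornification (1.55), S100 proteins (0.6384), metalloproteinases and inhibitors (0.3568), tumor-associated macrophages (0.9066), neutrophils (1.025) and epidermis and hair (1.07). Tumor 3 was low for keratins (-1.077) and for epithelial identity (-1.303). Tumor 6 was high for epidermis and hair (2.477) and brown fat (1.151) and low for lymphatic endothelium (-0.5191). Tumor 1 was low for interferon-gamma response (-1.016) and antigen presentation (-0.438), tumor 4 high for integrins and laminins (0.6131), and hyperplastic 2 low for mast cells (-0.3114).

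Among array entries that the comparisons leave out, 251 of 1957 transcript clusters with several gene symbols passed the test (12.8%), 122 higher and 129 lower in tumors. Of 29537 clusters without a symbol, 1772 did (6.00%), 370 higher and 1402 lower.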

How the results depend on the processing

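The number of genes called ran from 3376 to 4937 when single arrays were left out, against 4471 with all (1808 to 2851 higher, 1550 to 2086 lower, 114 to 190 beyond 2-fold higher and 525 to 635 beyond 2-fold lower). A replicate block gave 3991, of which 3638 were among the 4471, but the correlation of deviations was above 0.1 for 3 of the 6 same-numbered pairs (range -0.056 to 0.405), and for tumors 2 and 5 alone the best partner was the gland of the same number, so that the numbers were not taken as a pairing. Under the block Plk2, Padi4, Tapbpl, B2m and Pmp22 lost their calls. Reference gene centring gave 1181 genes higher. Without tumors 3 and 6, 260 genes were called beyond 2-fold higher, and 256 without hyperplastic 3 as well, a setting chosen after seeing the data. At the study's thresholds, 144 genes were called, 3 higher and 141 lower. The cause of these shifts was not tested. The highest chromosome median in a tumor was 0.15 over genes above detection and 0.0987 over all genes.

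The Pgr difference, near 0 with all arrays, was positive with array median centring (0.00348), array weights (0.34), without tumors 3 and 6 (0.92), without hyperplastic 3 as well (0.73), without tumor 3 (0.37), without tumor 6 (0.36) and without hyperplastic 1 (0.07), 2 (0.01) or 4 (0.17), with no call in any. Over the omission of single arrays it ran from -0.42, without tumor 2, to 0.37.

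Of 157 called named genes, 134 remained called on leaving out each array in turn and 131 in every of 22 settings. Calls lost without some array included Car9, Ero1a, Tnc, Col12a1, Pgf, Angpt1, Slc7a5, Etv4, Spred2, Itga2, Glycam1, Mmp3, Cox8b and Jchain. The calls of Pdpn, Plk2 and Padi4 were each lost on leaving out any of 8 arrays, and that of B2m any of 5. All 34 mitosis genes and 20 fat cell genes were called without each array in turn. The number of arrays limits what can be called, and signals near the detection level compress differences.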

Other observations

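Kinds of transcripts differed in the share called. Of 3948 pseudogenes, 646 (16.4%) were higher and 66 (1.67%) lower in tumors, while protein-coding genes were nearly balanced (1668 higher and 1504 lower of 16883). Probes of pseudogenes can take up transcripts of near-identical parent genes, and that part was not tested. Of 822 small nuclear RNA entries 69 (8.39%) were higher and 5 (0.608%) lower, against 9.38% and 7.16% of all genes. The share higher was thus not above that of all genes. Of 298 immunoglobulin and T cell receptor V segments 192 (64.4%) were lower and 0 higher in limma, and 8 of 12 J segments were lower.

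Several further lists had few calls. Of 9 plasma cell genes, Ighm, Irf4 and Jchain were lower and syndecan Sdc1, which epithelia also express, was higher (0.94, SE 0.20). Of 18 inflammatory CC chemokines 4 were lower, among them the eosinophil attractants Ccl11 (-1.49, SE 0.20) and Ccl24 (-0.93, SE 0.11). Of 6 Schwann cell and nerve genes the sodium channel Scn7a fell by 2.45 (SE 0.35), Pmp22 by 0.66 (SE 0.18), and the adhesion molecule Ncam1 was higher (0.80, SE 0.21). Of 6 ligands of natural killer receptors Cd48 was lower (-1.01, SE 0.23). Single members were lower among 9 mesenchymal genes (Fap, -1.08, SE 0.21), 13 myoepithelial genes (Synpo2, -1.77, SE 0.31) and 9 brown fat genes (Cox8b, -0.85, SE 0.26), and none of 3 erythrocyte and 11 epidermis and hair genes was called. The call of Cox8b was lost on leaving out any of 10 arrays, that of Jchain any of 7 and that of Pmp22 any of 5.

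The median deviation of a chromosome's genes above detection from the mean of the hyperplastic glands (for a gland, of the other 5) ran from -0.04 to 0.15 in tumors and from -0.05 to 0.05 in hyperplastic glands.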
